A study of Rattus norvegicus with 4 samples.

Results

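Complement is a protein cascade of innate immunity that tags surfaces and dying material for removal. Its classical branch starts with C1q, built from the chains encoded by C1qa, C1qb and C1qc, which are made mainly by macrophages and microglia. C3 is the protein on which all activation routes meet, C6 belongs to the terminal complex that forms membrane pores, and Serping1 encodes the C1 inhibitor, which blocks the proteases that act with C1q. In the nervous system complement is best known for the removal of synapses and of myelin debris after injury. These 6 genes were taken by symbol from the 32623 genes of the matrix, and each matched a single row. They were measured in rat trigeminal nerve by Visium, which captures polyadenylated RNA on printed spots that each cover a small area of tissue with several cells or parts of cells. A value counts unique molecular identifiers (UMIs), that is, captured RNA molecules.

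TN1, TN2 and TN3 each held the trigeminal root, ganglion and proximal branches of 1 wild type rat, from the side on which the nerve had been compressed to model trigeminal neuralgia (TN). The healthy control (HC) area held tissue of 2 rats, which the barcodes do not separate, so HC was a single sample. The animals were adult male Sprague-Dawley rats. Controls are named as sham-operated in the methods, but the series description takes HC from the healthy side of 2 of the same 3 TN rats. The areas held 1256 to 2013 spots and 23546025 to 41335930 UMIs, with a median of 9487 UMIs per spot in TN1 and 30808 in TN2. With 1 HC area, condition and capture area cannot be told apart, and the tests assume that HC varies like the TN areas. Between 1133 and 1707 barcodes of an area also occurred in another area, so spots were identified by barcode and area together.

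Spots were grouped into 10 clusters without the complement genes, and clusters were named from marker genes of tissue types. The ganglion region (sensory neuron genes such as Prph and Calca) took in 658 HC spots, and 200, 365 and 164 spots of TN1, TN2 and TN3. The central myelin region (oligodendrocyte genes) held 276, 122, 223 and 433. The peripheral myelin region held 409, 9, 386 and 18, and blood and bone held 99, 64, 189 and 514. The astrocyte and connective tissue regions had 20 or more spots only in TN2 and TN3, and the central neuron region only in TN1 and TN2. Cluster 2, between connective tissue and Schwann cell markers, had 353 spots of TN2 and 477 of TN3. Cluster 9, between Schwann cell and sensory neuron markers, had 169, 28, 267 and 389. Neither of these clusters was given a tissue name. The composition of the areas therefore differed, and no HC value exists for the regions in which several members were highest.

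C1qa, C1qb and C1qc lie side by side on rat chromosome 5 in the RefSeq annotation (GRCr8), with no other annotated gene between them. An entry in the RefSeq promoter table was found for 4 of the 6 members, C1qa, C1qb, C3 and C6. The sequences around the starts of C1qa and C1qb are shown because these genes had the most similar patterns over spots. They are 300 bases from RefSeq on the minus strand, at chr5:154419884-154420183 for C1qa and chr5:154407778-154408077 for C1qb. Capitals mark GGAAGT, which holds the GGAA core of ETS family sites, and GAAACT, which holds the GAAA core of interferon regulatory factor sites, on either strand.
C1qa: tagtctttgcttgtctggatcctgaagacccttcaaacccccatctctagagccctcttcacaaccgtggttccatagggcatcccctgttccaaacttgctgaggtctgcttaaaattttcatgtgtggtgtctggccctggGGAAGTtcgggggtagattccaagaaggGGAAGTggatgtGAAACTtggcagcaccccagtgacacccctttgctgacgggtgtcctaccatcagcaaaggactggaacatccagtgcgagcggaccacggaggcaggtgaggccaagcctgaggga
C1qb: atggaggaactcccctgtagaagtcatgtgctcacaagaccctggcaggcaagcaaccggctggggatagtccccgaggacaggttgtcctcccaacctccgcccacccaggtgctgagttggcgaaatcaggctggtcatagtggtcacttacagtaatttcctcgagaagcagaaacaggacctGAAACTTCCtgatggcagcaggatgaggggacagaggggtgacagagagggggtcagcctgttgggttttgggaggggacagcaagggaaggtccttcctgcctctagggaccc
C1qa held GGAAGT at 2 positions and GAAACT at 1. C1qb held each at 1 position, and there the motifs overlapped. GGAAGT was at 0 positions in C3 and C6, while GAAACT was at 0 in C3 and at 2 in C6. Of 27457 promoters in the table, 22.8% held GGAAGT and 16.5% held GAAACT. Another motif, TTGCNNAA, a C/EBP-type sequence, was at 1 position each in C3 and C6, at 0 in C1qa and C1qb, and in 10.5% of all promoters. The motifs were chosen after the sequences had been read, and a match is not a binding site.

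Over all spots, all 6 genes were higher in every TN area than in HC. Levels are in CPM, the usual scaling of a gene's UMI count to the total of all genes in the area or region. C1qa was at 67.4 CPM in HC, against 104 in TN1, 240 in TN2 and 376 in TN3. C1qb followed the same order at 63.6 CPM in HC and 85.6, 225 and 331 in TN, and so did C1qc at 31.0 and 59.1, 114 and 189. TN3 was thus highest for every C1q chain and TN1 lay nearest to HC. Serping1 was at 63.1 CPM in HC and at 113, 501 and 510 in TN1, TN2 and TN3, so that TN2 and TN3 stood apart from the other areas. C3 was at 55.6, 36.4, 77.9 and 26.1 CPM, with TN2 and not TN1 nearest to HC. C6 was rare, with 15, 168, 152 and 19 UMIs in total, or 0.637, 4.33, 4.71 and 0.460 CPM.

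**Figure D1:**
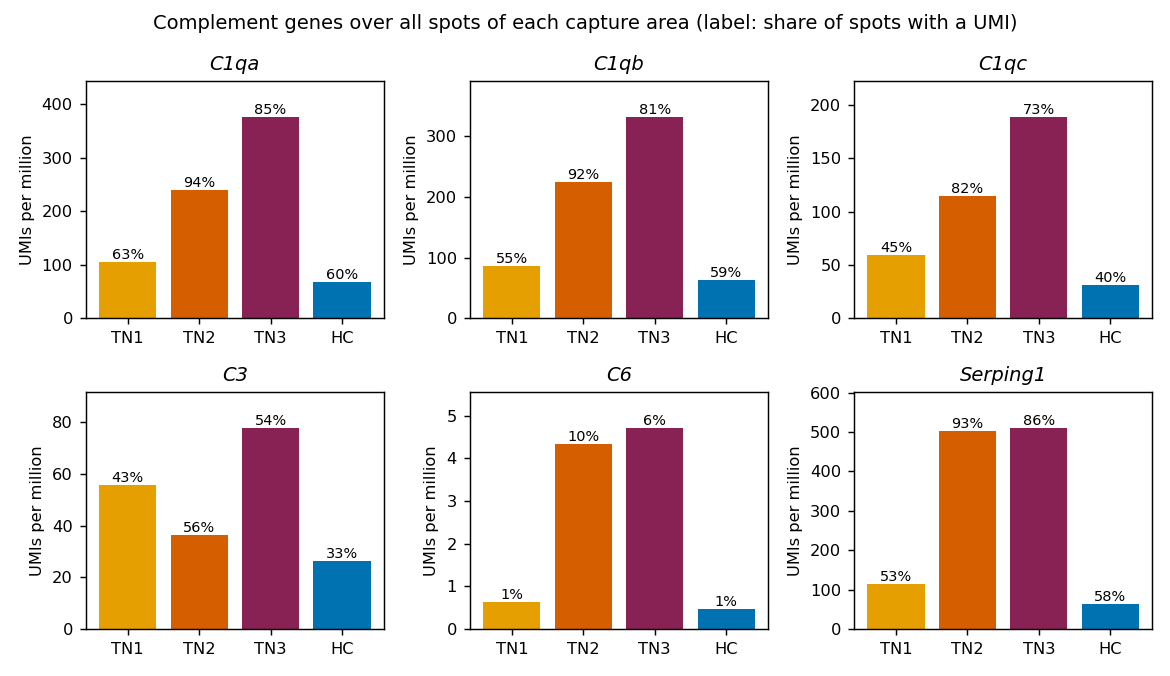
Level of each complement gene in CPM over all spots of TN1, TN2, TN3 and HC, 1 bar per capture area, with the percent of spots that held at least 1 UMI above it. HC had the lowest bar for all 6 genes, and for Serping1 TN2 and TN3 reached 501 and 510 against 63.1.

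The share of spots with a UMI followed spot depth as well as level. With 95% exact binomial intervals, C1qa was found in 59.7% (57.5 to 61.9) of HC spots and in 62.7% (60.3 to 65.1), 94.3% (92.9 to 95.6) and 85.1% (83.4 to 86.6) of those of TN1, TN2 and TN3. After each spot was thinned to 2000 UMIs the shares were 15.0% (13.5 to 16.7) in HC and 22.4% (20.3 to 24.5), 37.3% (34.6 to 40.0) and 47.0% (44.7 to 49.4) in TN, in the order of the levels, with 9, 16, 116 and 9 shallower spots of TN1, TN2, TN3 and HC left out. Serping1 after thinning was, from TN1 to TN3 and then HC, in 19.6% (17.7 to 21.6), 52.0% (49.2 to 54.8), 56.2% (53.9 to 58.5) and 11.8% (10.4 to 13.3). C6 was in 0.945% (0.530 to 1.55), 10.4% (8.72 to 12.2), 6.31% (5.26 to 7.495) and 0.944% (0.569 to 1.47) of spots before thinning, and after it in under 1% in each area. These intervals cover counting error only. The tenth of spots with the most UMIs of the gene held 32.8% to 43.8% of C1qa UMIs and 42.0% to 56.0% of C3 UMIs.

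Tested over all spots, none of the members passed the adjusted threshold of 0.05. For C1qa the log2 fold change was 1.76 ± 0.77 (SE, edgeR adjusted p = 0.556), with TMM-normalised values of 103, 231 and 378 CPM in TN against 70.3 in HC. C1qb gave 1.67 ± 0.81 (edgeR adjusted p = 0.562), C1qc 1.88 ± 0.72 (0.556), C3 1.04 ± 0.49 (0.562), C6 2.73 ± 1.30 (0.562) and Serping1 2.49 ± 0.99 (0.556). No gene of 14902 was called (0.0%, n = 0, with 1271 at an unadjusted p under 0.05), whereas DESeq2 called 116 up and 28 down, none of them a member. All 3 TN areas lay above HC for 6 of 6 members, against 28.7% of all genes tested. The calls depended on which TN area was left out. Without TN1, C1qa, C1qb, C1qc, C6 and Serping1 passed, at edgeR adjusted p values of 0.0283, 0.0250, 0.0296, 0.0158 and 0.00942, and C3 did not (0.203). In that fit 8.07% of all genes rose, whereas no gene was called without TN2 or without TN3. TN1 lay nearest to HC for every member but C3. The remaining TN2 and TN3 shared cluster 2, connective tissue and astrocyte spots, of which TN1 and HC held few or none. Fewer cells of a type and less RNA per cell cannot be told apart in such sums, and the sums over all spots also mix levels with the tissue that each area held.

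The regions held these genes very unevenly, and the regions of the highest levels differed between members. The following values are CPM within a region, given as a description, since regions came from clusters of the same spots. C1qa was highest in the astrocyte region, at 703 in TN2 and 1062 in TN3, a cluster whose next best marker list was that of macrophages and microglia. With spots given to tissues by marker score, astrocyte spots were at 410 and 813 in these areas, and a separate macrophage group had the highest mean, 669 ± 339 (SD, n = 3). By region mean, C1qa was next in connective tissue, at 344 and 621 in TN2 and TN3, and in cluster 2, at 278 and 505. In central myelin it was at 241, 421, 445 and 239 in TN1, TN2, TN3 and HC, and in the ganglion region at 60.9, 165, 119 and 34.2. Central myelin of TN2 thus lay above both connective tissue and cluster 2 of TN2, and the region means cover different areas. The lowest means over areas were those of cluster 9, at 93.8 ± 37.1 CPM (SD, n = 4), and of the ganglion, at 94.8 ± 58.6 (n = 4), a pair that did not differ beyond the spread of the areas. The central neuron region came next, at 117 ± 25.2 (n = 2), followed by peripheral myelin at 183 ± 110 (n = 2) and blood and bone at 211 ± 116 (n = 4). These neighbours also differed by less than their spread. The central neuron mean covers TN1 and TN2 only. In TN1 this region, at 135, was above cluster 9, at 95.1, and the ganglion, at 60.9. In TN2 it was below them, at 99.7 against 119 and 165.

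Within each area, central myelin exceeded the ganglion in CPM for every C1q chain. For C1qa the ratio was 6.997 in HC and 3.96, 2.55 and 3.73 in TN1, TN2 and TN3. For C1qb it was 6.18 in HC and 2.97, 2.10 and 3.32 in TN, and for C1qc 4.75 in HC and 1.66, 1.39 and 2.17 in TN. HC had the highest ratio for all 3 chains. These ratios compare shares of RNA and not amounts per spot, because depth differed. The median spot held 7378 UMIs in central myelin, against 40721 and 39681 in clusters 4 and 10, which form the ganglion. Detection of C1qa was more frequent in the ganglion of TN1 (82.0% against 62.7%), TN2 (99.5% against 88.5%) and TN3 (95.1% against 76.2%). For HC it was less frequent there, at 68.4% against 81.8%. In HC, central myelin spots held 12.4% of all UMIs but 44.2% of C1qa and 50.2% of C3 UMIs. In TN3, 43.2% of C1qa UMIs were in cluster 2, which held 32.2% of all UMIs.

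**Figure D2:**
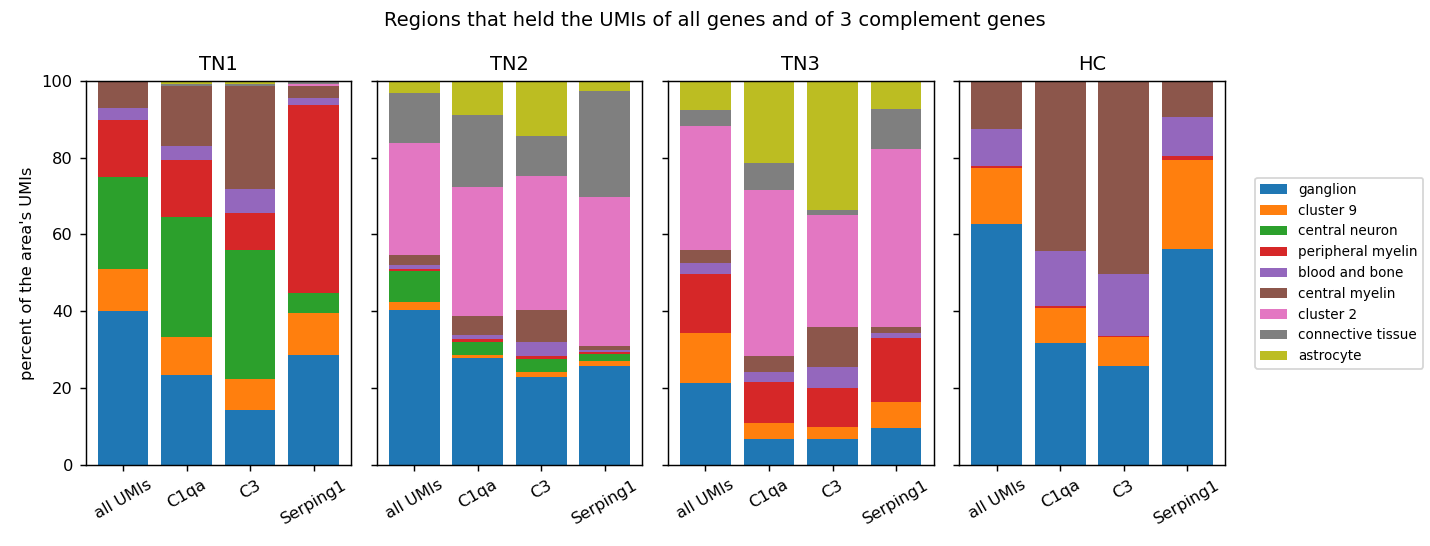
Percent of the UMIs of each capture area that lay in each region, for all genes and for C1qa, C3 and Serping1. In HC, central myelin spots held 12.4% of all UMIs and 44.2% of C1qa UMIs, while in TN3 cluster 2 held 43.2% of C1qa UMIs.

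The shares of the chains among C1q UMIs also varied by region. These are RNA counts and do not give the make-up of the protein. In ganglion spots C1qc contributed 27.7%, 21.7% and 24.0% of all C1q UMIs in TN and 21.2% in HC, against 15.4%, 14.2% and 16.2% in TN and 16.2% in HC in central myelin. The regions did not overlap in this share. In peripheral myelin C1qc made up 32.0% in TN1 and 23.8% in TN3. Tmem119, a microglia marker, was at 39.1 to 79.1 CPM in central myelin and at 4.21 to 10.7 in the ganglion. It was also at 123 in blood and bone of TN2 and at 46.4 and 57.5 in connective tissue of TN2 and TN3. Mrc1, a marker of tissue macrophages, was at 2.51 to 8.38 in central myelin and 6.33 to 20.6 in the ganglion. Cd163 was likewise higher in the ganglion of every area, but near the floor, at 0 to 0.973 CPM in central myelin and 1.17 to 1.97 in the ganglion. Csf1r, Aif1, Tyrobp and Adgre1 of the same list were higher in central myelin of every area, Adgre1 at 13.2 to 35.4 against 3.48 to 15.5.

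C3 had another distribution. It was at 174 CPM in TN2 and 346 in TN3 in the astrocyte region, and at 222, 109, 229 and 106 in central myelin of TN1, TN2, TN3 and HC. In the ganglion it was at 19.8, 20.6, 24.3 and 10.7, and in connective tissue at 28.8 in TN2 and 24.0 in TN3. The ratio of central myelin to ganglion was 11.2, 5.28, 9.42 and 9.86 in TN1, TN2, TN3 and HC. Connective tissue, where C1q was high, thus had little C3, with 0.26 and 0.10 of the central myelin level in TN2 and TN3.

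Serping1 was highest in connective tissue, at 1047 CPM in TN2 and 1240 in TN3, then in cluster 2, at 673 and 739. The astrocyte region, at 433 and 491, and peripheral myelin, at 371 in TN1 and 544 in TN3, came next and did not differ beyond their spread. It was lower in central myelin, at 50.2, 162, 214 and 47.3, and lowest on average in the central neuron region, at 24.7 in TN1 and 105 in TN2. C6 was also highest in connective tissue, at 14.1 CPM in TN2 (72 UMIs) and 32.8 in TN3 (45 UMIs), 4.80 and 18.7 times its level in the ganglion of the same area. Outside connective tissue the highest region mean of C6 was 4.999 CPM, in cluster 2. When spots were given to tissues by marker score, the C6 level in connective tissue was 7.09 CPM in TN2 and 8.61 in TN3, so its height there depended on how spots were assigned.

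**Figure D3:**
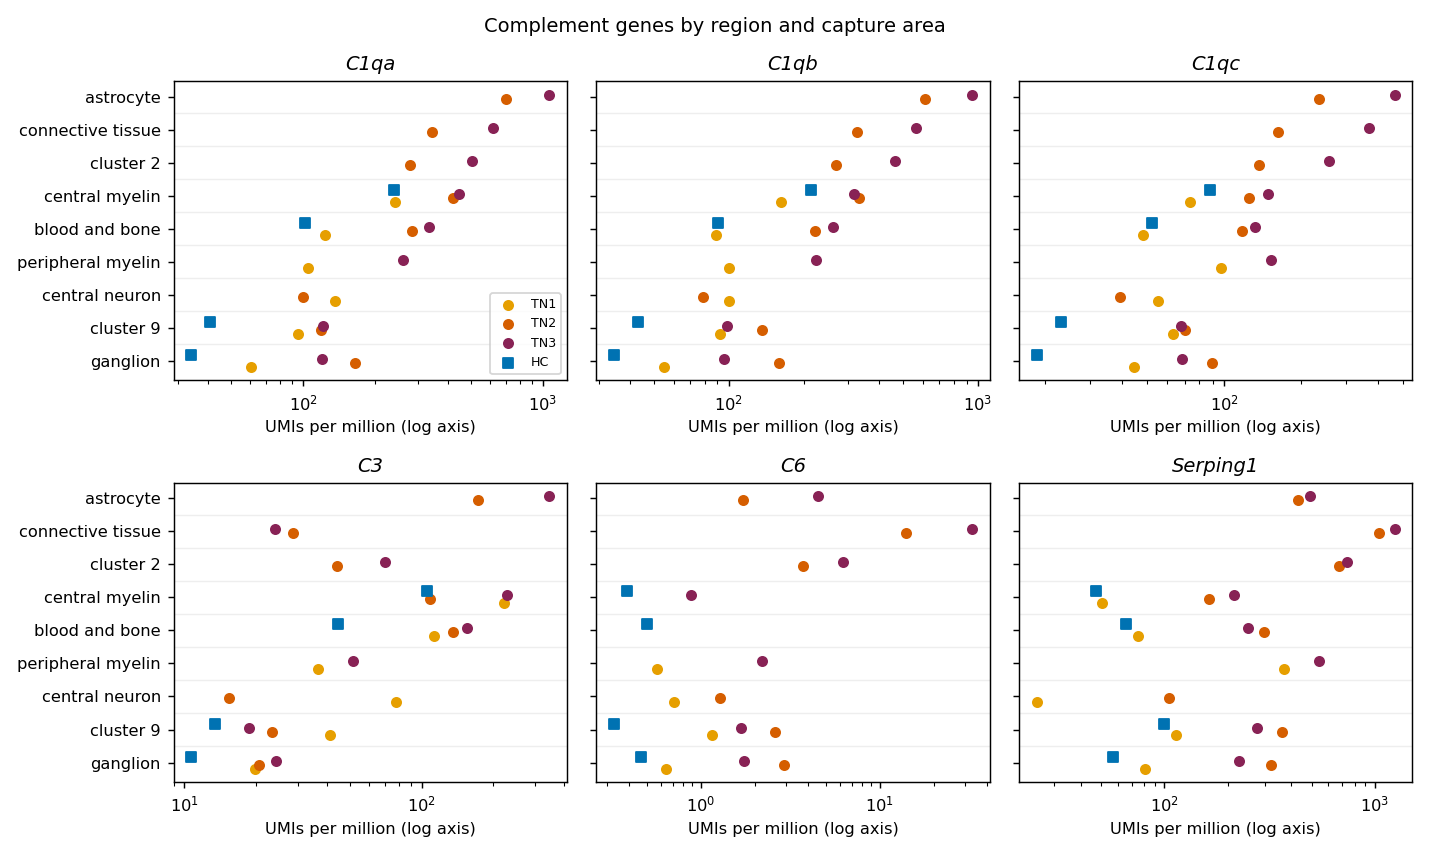
Level of each complement gene in CPM (log axis) by region, 1 point per capture area with at least 20 spots, squares for HC; values of 0 are not drawn. By region mean the C1q chains were highest in astrocyte spots, followed by connective tissue and cluster 2. C3 was highest in astrocyte and central myelin spots. The C1q chains and C3 were low in the ganglion. Serping1 and C6 were highest in connective tissue.

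The ganglion holds the cell bodies of the sensory neurons of the face, and its region addressed the question of how the compressed nerve differs from the healthy one. All 6 members were higher there in each TN area than in HC, but none passed the adjusted threshold. TMM-normalised C1qa was at 60.6, 161 and 119 CPM in TN1, TN2 and TN3 and at 35.4 in HC, a log2 fold change of 1.68 ± 0.54 (SE, edgeR adjusted p = 0.534). C1qb was at 54.5, 155 and 95.4 against 35.8 (1.51 ± 0.57, edgeR adjusted p = 0.534). C1qc, at 43.996, 87.7 and 67.9 against 19.2, had the smallest p of the members (1.80 ± 0.41, edgeR adjusted p = 0.532, unadjusted 0.00449). TN2 was highest for all chains and TN1 lowest.

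C3 in the ganglion was at 19.7, 20.1 and 24.3 CPM against 11.1 in HC, with little spread between the TN areas (0.94 ± 0.26, edgeR adjusted p = 0.534). Serping1 was at 80.3, 312 and 226 against 58.7 (1.81 ± 0.73, edgeR adjusted p = 0.534), with TN1 near HC. C6 rested on 6, 46 and 12 UMIs in TN and 12 in HC, at 0.635, 2.87 and 1.74 against 0.480 CPM (1.88 ± 0.95, edgeR adjusted p = 0.562).

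The 6 members stood above HC in all TN areas where 27.4% of all 12823 genes tested did so. By edgeR no gene was called in either direction (0.0%, n = 0, with 1192 at an unadjusted p under 0.05). DESeq2 called 98 genes up (0.764%) and 21 down, and C1qc was the only member among them (DESeq2 adjusted p = 0.00363). Without TN1, 3.46% of genes rose by edgeR, and C1qa, C1qb, C1qc and Serping1 were among them, with log2 fold changes of 1.98, 1.81, 2.02 and 2.20 and edgeR adjusted p values of 0.00161, 0.00647, 0.00143 and 0.00103. C3 and C6 did not pass (edgeR adjusted p = 0.0721 and 0.0733). No member passed without TN2 or without TN3.

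The ganglion region joined 2 clusters in which the areas had unequal shares. Cluster 10, led by injury genes such as Gal, Vip and Reg3b, held 54, 325, 68 and 0 of them, and cluster 4 held 146, 40, 96 and 658, so that TN2 lay mostly in the former and HC wholly in the latter. C1qa was higher in cluster 10 than in cluster 4 of the same area, at 91.0 against 49.6 CPM in TN1, 180 against 78.7 in TN2 and 165 against 93.8 in TN3. C1qb, C1qc, C3, C6 and Serping1 had the same order in each TN area, C6 on few UMIs. In cluster 4 alone, C1qa remained above the HC level of 34.2 CPM in each TN area, and its log2 fold change was 1.05 ± 0.33 (edgeR adjusted p = 0.447), against 1.205 ± 0.25 for C1qc (0.337), 0.97 ± 0.37 for C1qb (0.512), 1.35 ± 0.52 for Serping1 (0.527) and 0.57 ± 0.53 for C3 (0.764). C3 in cluster 4 of TN2 was at 6.67 CPM on 16 UMIs, below the 10.7 of HC. Without TN1, C1qa, C1qb, C1qc and Serping1 passed in this cluster too, where 2.43% of genes rose, at edgeR adjusted p values of 0.000355, 0.000408, 0.000865 and 4e-06.

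Other marker lists also differed in level between the ganglion sums. Of 14 macrophage and microglia genes tested, 13 exceeded HC in every TN area and 1 (Cd163) was below it in every one, with a median log2 fold change of 1.41. The list summed to 303, 653 and 447 CPM in TN1, TN2 and TN3 and to 168 in HC. C1q per unit of this list was 0.528, 0.633 and 0.634 in TN and 0.519 in HC, a much smaller gap than that of C1q itself, at 160, 413 and 283 against 87.3 CPM. The size of this gap depended on the genes divided by. Per UMI of Csf1r, a gene of the list, C1q was at 2.93, 5.09 and 5.56 in TN1, TN2 and TN3 against 3.07 in HC. Cd68, a lysosomal marker of phagocytes, was at 9.57, 60.6 and 38.9 CPM in TN against 3.55. The injury gene list summed to 1525, 2866 and 1609 CPM in TN against 579.

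Connective tissue genes, like Serping1, were lowest in TN1 and HC. Their sum in the ganglion was 1052, 3152 and 2378 CPM in TN1, TN2 and TN3 and 1053 in HC. In the other direction, neutrophil genes summed to 7.02 to 11.95 CPM in TN against 80.9 in HC, and blood and bone genes to 126 to 408 against 487. The part of these lists in the members' values was not tested. Hepatocyte genes were also summed, since liver is the main source of circulating complement, but RNA counts cannot show protein that arrives with blood. Of this list, Alb was at 0 to 0.850 CPM in the ganglion and Fgb was at 0 in all 4 areas. The list as a whole summed to 32.2, 41.9 and 20.3 CPM in TN and 18.1 in HC, nearly all of it Serpina1, at 30.7, 41.1 and 19.5 against 17.2.

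**Figure D4:**
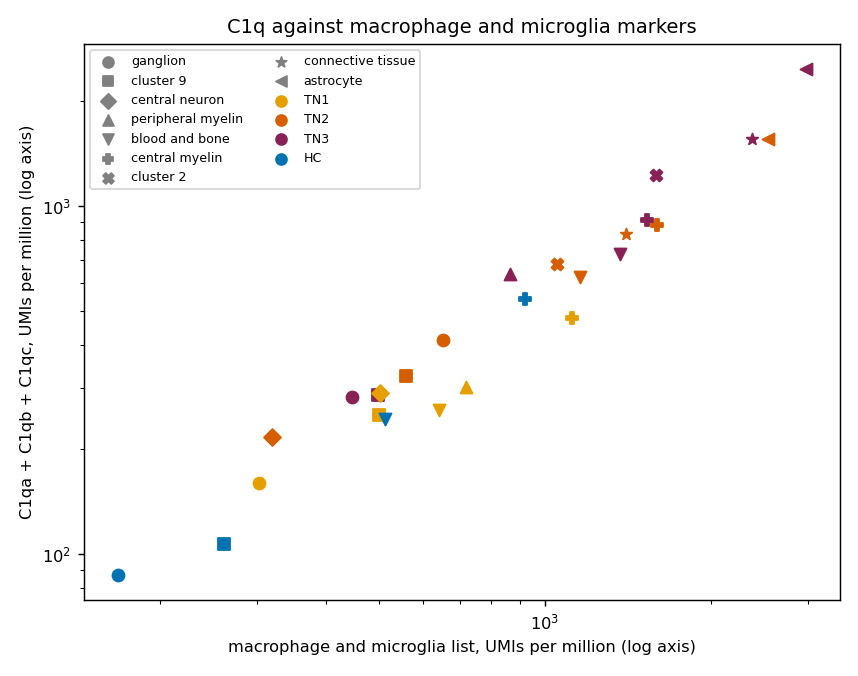
Summed C1qa, C1qb and C1qc against the summed macrophage and microglia list, both in CPM on log axes, 1 point per region (marker shape) and capture area (colour). Ganglion points run from 168 and 87.3 in HC to 653 and 413 in TN2.

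In central myelin, which is made by oligodendrocytes at the root, the C1q chains of TN and HC overlapped. TMM-normalised C1qa was at 237, 415 and 456 CPM in TN1, TN2 and TN3 and at 249 in HC, with TN1 below HC, although in plain CPM it was just above (log2 fold change 0.56 ± 0.37, edgeR adjusted p = 0.9997). C1qb was at 160, 330 and 325 against 223 (0.28 ± 0.40, edgeR adjusted p = 0.9997) and C1qc at 72.2, 123 and 151 against 91.5 (0.33 ± 0.38, edgeR adjusted p = 0.9997). C3 was at 218, 107 and 235 against 110, with TN2 just below HC but just above it in plain CPM (0.77 ± 0.42, edgeR adjusted p = 0.9997). Serping1 was at 49.3, 160 and 220 against 49.3, with TN1 level with HC (1.52 ± 0.70, edgeR adjusted p = 0.9997). C6 had too few UMIs to test.

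In TMM-normalised values 1 of 5 members tested (Serping1, by 49.34 against 49.28 in TN1) had all TN areas above HC in central myelin, against 20.3% of all 9081 genes. In plain CPM C1qa and C3 did so as well, making 3 of 5. None (0, 0.0%) of the 9081 genes was called by edgeR, with 284 at an unadjusted p under 0.05 and 4 called by DESeq2. Without TN1, 3.01% of genes rose, among them C1qa (log2 fold change 0.82, edgeR adjusted p = 0.0166) and Serping1 (1.96, edgeR adjusted p = 1.77e-11). No gene rose without TN2 or without TN3. The macrophage and microglia list summed to 1122, 1596 and 1530 CPM in TN against 920.

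Whether TN differed from HC more in the ganglion than in central myelin was put to a test of the difference itself, in a fit with a term for each area. For C1qc the difference of the log2 fold changes was 1.45 ± 0.28 (edgeR adjusted p = 0.202, unadjusted 0.000158). For C1qb it was 1.15 ± 0.29 (edgeR adjusted p = 0.447) and for C1qa 1.04 ± 0.29 (0.504). None of these passed over 12745 genes, of which 3 did (0.0235%). C1qc passed when any 1 TN area was left out, with a difference of 1.36 without TN1, 1.29 without TN2 and 1.64 without TN3 and edgeR adjusted p values of 0.00498, 0.00641 and 0.000449. C1qb passed without TN3 (1.30, edgeR adjusted p = 0.0119). More genes passed in each of these fits than in the full one: 85 of 12394 without TN1, 49 of 12376 without TN2 and 84 of 12672 without TN3. For Serping1 and C3 the difference was small, at 0.29 ± 0.33 and 0.22 ± 0.34 (edgeR adjusted p = 0.960 and 0.963).

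**Figure D5:**
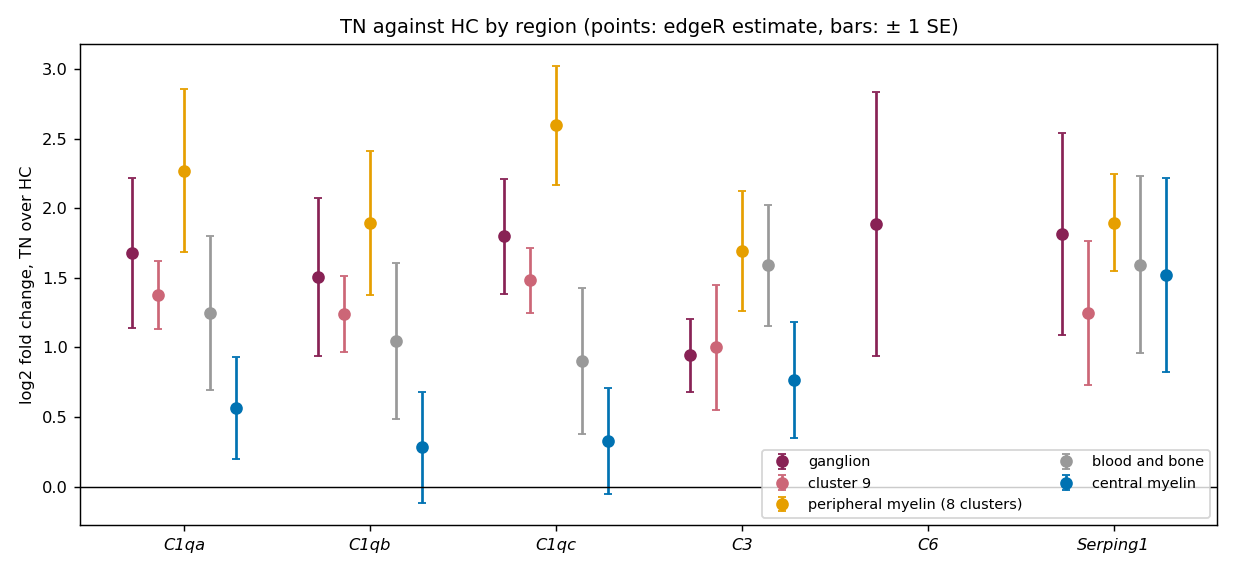
Log2 fold change of TN over HC for each member in 5 regions, points giving the edgeR estimate and bars 1 SE on each side. The C1q chains lie lowest in central myelin, at 0.28 to 0.56, and at 1.51 to 1.80 in the ganglion, while Serping1 lies between 1.25 and 1.90 in all 5; no point passed the adjusted threshold.

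Schwann cells make the myelin of the peripheral nerve. Peripheral myelin could be tested after clustering into 8 groups, which gave 433, 37, 543 and 64 spots in TN1, TN2, TN3 and HC. C1qc was at 98.5, 101 and 148 CPM in TN against 19.3 in HC, where it rested on 17 UMIs (log2 fold change 2.60 ± 0.43, edgeR adjusted p = 0.148). C1qa was at 110, 163 and 267 against 37.4 (2.27 ± 0.59, edgeR adjusted p = 0.197), and C1qb gave 1.89 ± 0.52 (0.217). Serping1 was at 373, 457 and 539 against 122 (1.90 ± 0.35, edgeR adjusted p = 0.156), and C3 at 37.3, 32.8 and 48.6 against 12.5 (1.69 ± 0.43, 0.193).

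Here TN1 lay above HC for all 5 members tested, where HC was a single sum of 64 spots. All TN areas were above HC for 33.4% of the 10244 genes, and none of the genes was called (0, 0.0%; edgeR, with 1464 at an unadjusted p under 0.05). With spots assigned by marker score, which gave 199 HC spots, 0.54% of 10932 genes rose and C1qc was among them (edgeR adjusted p = 0.0349), as were Colec12 and Itgb2 of the wider pathway, while Susd4 fell. Without TN1, when 4.43% of genes rose, the same 5 members passed in the 8-cluster region, and without TN2 or TN3 none did.

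Cluster 9 gave the smallest SEs for the C1q chains among the regions tested. C1qc was at 63.5, 69.2 and 67.2 CPM in TN and at 23.7 in HC (log2 fold change 1.48 ± 0.23, edgeR adjusted p = 0.123). C1qa was at 95.8, 117 and 119 against 42.4 (1.38 ± 0.24, edgeR adjusted p = 0.188), and C1qb at 93.0, 133 and 97.3 against 44.8 (1.24 ± 0.27, 0.280). Of 10789 genes, 8 were called (0.0741%), none of them a member, and 24.7% had all TN areas above HC, as 5 of 5 members tested did. In the blood and bone region C3 was at 118, 126 and 168 CPM against 45.6 (1.59 ± 0.43, edgeR adjusted p = 0.872). TN1 was below HC there for C1qb and C1qc, so 3 of 5 members were above in all areas, against 20.9% of all genes. In that region 3 of 8323 genes were called (0.036%), all of them down. Without TN1, 4 of 5 members passed in cluster 9, C3 being the exception, where 3.13% of all genes rose, and 5 of 5 in blood and bone, where 2.15% did.

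The wider complement pathway was followed with a list of 53 genes, of which 51 were found by symbol. In the ganglion 37 were tested, of which 21 were above HC in all TN areas and 5 below. The list includes the 6 members, which were all among the 21. These counts are therefore not separate from those of the members. Of all 12823 genes tested there, 27.4% were above and 3804 genes were below. The median log2 fold change was 0.97 for the list, members included, against 0.03 over all genes. Among initiators, C1r and C1s encode the proteases that associate with C1q. C1s was at 23.9, 126 and 97.2 CPM in TN against 13.7 (2.59 ± 0.92, edgeR adjusted p = 0.534) and C1r at 24.4, 97.7 and 74.6 against 22.1 (1.57 ± 0.73, 0.551). TN1 was the lowest TN area for both, as for Serping1, and both were highest in connective tissue, at means of 532 and 354 CPM. Without TN1, when 3.46% of all genes rose, genes of the list that rose beside the 4 members named above included C1r, C1s, Cfd, Colec12, Fcna, Itgax and Itgb2, while Susd4 fell.

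Regulators lay on both sides of HC, and none passed the adjusted threshold. Cd59, a membrane inhibitor of the terminal complex, was at 393, 177 and 137 CPM in TN against 96.6 in the ganglion (log2 fold change 1.29 ± 0.60, edgeR adjusted p = 0.553), with TN1 highest. Susd4, a membrane regulator, was at 118, 71.7 and 90.4 against 186 (-0.998 ± 0.28, edgeR adjusted p = 0.534), and Clu, a secreted chaperone, at 1087, 898 and 954 against 1349 (-0.46 ± 0.19, 0.534). C1qbp, a mainly mitochondrial protein named for binding C1q, was at 177, 143 and 165 against 162. In central myelin 20 list genes were tested, the 5 members tested there among them. Of the 20, 5 were above HC in all TN areas and 2 below, a share above HC near the 20.3% of all genes. Their median log2 fold change was 0.31. Terminal components were at low levels over all spots. C8a was at 0 in every area, C9 at 0 to 0.169 CPM and C8g, the highest of them, at 3.99 to 6.27 CPM. C4a and C4b are near-identical copies, so their counts of under 1 CPM are uncertain.

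The genes whose counts were most like those of each member over spots were named by the mean Pearson correlation within the 4 areas, as a description. Spots of an area share a library, so they are not independent, and they differ in depth. For C1qa they were Fcer1g (mean r = 0.43), Tyrobp (0.43), Csf1r (0.42), Aif1 (0.39) and Cst3 (0.39), of which Fcer1g, Tyrobp, Csf1r and Aif1 are on the macrophage and microglia list. For C1qb they were Tyrobp, Fcer1g, Aif1, Csf1r and Npc2 (0.42 to 0.36), and for C1qc Tyrobp, Fcer1g, Lyz2, Ftl1 and Aif1 (0.33 to 0.30). C1qa and C1qb correlated with each other at 0.31, 0.58, 0.58 and 0.48 in TN1, TN2, TN3 and HC.

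The genes most like C3 included Cst3 (0.45), the astrocyte gene Gfap (0.43), Tf (0.41) and Klk6 (0.37). Serping1 was most like Dcn (0.56), Vim (0.54), Col3a1 (0.52), Sparc (0.50) and Crip1 (0.49), with lower values in HC (0.28 for Dcn) than in TN (0.56 to 0.71). Between C1qa and Serping1 the correlation was 0.20 in TN2 and 0.29 in TN3 but -0.07 in TN1 and -0.10 in HC. For C6, with few UMIs, the highest mean was 0.14 (Igfbp7), which is no more than weak.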

How the data were processed

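The authors deposited raw UMI counts per gene and spot from Space Ranger 1.2.0, with the 4 areas joined in 1 matrix, where the number after each barcode gives the area in the order of the series description. The genome build is not given in the sources used here. In all, 16088 genes seen in 10 spots or more were normalised by SCTransform (Seurat 5.3.0, sctransform 0.4.2), followed by 30 principal components of the 3000 most variable genes without 17 complement genes, and K-means with 10 clusters. Clusters took the name of the marker list with the highest score, if it led by 0.25. UMIs were summed per region and area, where every area had 20 spots, and compared by the quasi-likelihood test of edgeR 4.0.16 (filterByExpr, TMM, Benjamini-Hochberg adjustment over all genes) in R 4.3.3, with 2 residual degrees of freedom, or 1 with a TN area left out. DESeq2 1.42.0, other filters, normalizations and clusterings, and leaving out each TN area were alternatives. The 8-cluster and marker-score fits of peripheral myelin, and areas left out in cluster 4, cluster 9 and blood and bone, were chosen after seeing the data. Spots were not replicates. The SE of a log2 fold change was taken as its absolute value divided by the square root of the F statistic of the quasi-likelihood test. Named genes were the 6 members, complement genes called or among the 12 highest, and the 5 most correlated genes per member with a UMI in at least 5% of spots of every area. Some genes that this rule names are not reported here. Itgax, Fcna, Cfd, C9, C8a and C8g follow from calls or were named after their values were seen. Members, lists and tests were chosen with earlier results of these data known. The tests were checked on simulated counts.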

Additional observations from a re-analysis of the deposited data

How the results depend on the processing

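In the 4 areas available, the number of genes called depended mainly on which TN area was left out. The tests set 3 TN areas against 1 HC area and assumed that HC varied like the others. Leaving out each TN area in turn gave 0 to 645 genes in the ganglion, 0 to 428 in central myelin, 0 to 2171 over all spots, 6 to 413 in blood and bone, 0 to 643 in cluster 9, 0 to 813 in peripheral myelin and 49 to 85 for the difference between ganglion and central myelin, with the highest value without TN1 in each. DESeq2 called 119 genes in the ganglion, 4 in central myelin and 144 over all spots. Without a filter on low counts edgeR called 27 genes in the ganglion and 1 in central myelin. In the ganglion, log-normalised clustering gave 5 genes, marker scores 1 and the cluster with most HC spots 5, and marker scores gave 367 in peripheral myelin.

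Leaving out an area gave log2 fold changes in the ganglion of 1.35 to 1.98 for C1qa, 1.07 to 1.81 for C1qb, 1.55 to 2.02 for C1qc and 1.39 to 2.20 for Serping1. In central myelin they were 0.38 to 0.82 for C1qa and 1.06 to 1.96 for Serping1. Over all spots they were 1.26 to 2.11 for C1qa, 1.195 to 2.05 for C1qb, 1.39 to 2.21 for C1qc, 2.34 to 3.20 for C6 and 2.18 to 2.92 for Serping1. For the difference between regions they were 0.95 to 1.30 for C1qb and 1.29 to 1.64 for C1qc, while C3 went from -0.083, a reversal without TN2, to 0.39. DESeq2 gave 1.79 for C1qc in the ganglion. With log-normalised clustering C1qb and C1qc in central myelin reversed to -0.27 and -0.17. The causes were not tested. No other alternative turned the direction of a member in the ganglion, in central myelin or over all spots.

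Levels were compared for the ganglion, both myelin regions and connective tissue. In connective tissue the means by marker score, which add TN1 to TN2 and TN3, were 272 CPM for C1qa, 243 for C1qb, 38.2 for C3, 5.60 for C6 and 670 for Serping1, and with 8 clusters 55.9 for C3, 9.09 for C6 and 831 for Serping1. C3 in peripheral myelin was at 32.6 CPM with 8 clusters, 32.0 with 12 and 32.6 by marker score, but these means include HC, and with 8 clusters or marker scores TN2, which the mean of 43.999 lacked, and with 12 clusters the TN mean was 43.85. In the astrocyte region marker scores, which add TN1 and HC, gave a mean of 416 CPM for C1qa against 882 and of 197 for Serping1 against 462. Thinning lowered the mean share of TN spots and the share of HC spots with a UMI to 35.6% and 15.0% for C1qa, 31.6% and 14.9% for C1qb, 20.1% and 7.93% for C1qc, 13.0% and 7.73% for C3, 0.552% and 0.150% for C6 and 42.6% and 11.8% for Serping1. Over sums per area and region in place of spots, 3, 3, 2, 0, 0 and 0 of the 5 genes most like C1qa, C1qb, C1qc, C3, C6 and Serping1 were shared.

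No paired analysis was possible because HC is a single area in which the barcodes do not separate the rats. If HC came from some of the TN rats, as the series description states, HC and TN were not independent. The tests did not take this into account.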
